A study of Mus musculus with 6 samples.

Results

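The V genes of the T cell receptor alpha and beta chains are described here in liver immune cells of 3 droplet single-cell libraries. Members were all Gene Expression features whose symbol starts with Trav or Trbv, which gave 163 of 32286 features, 128 Trav and 35 Trbv. All 163 matched the RefSeq gene table of GRCm38, the build of the files. The Trav genes span chromosome 14 from 52427967 to 53977678, and the Trbv genes span chromosome 6 from 40891296 to 41558371. The Trav locus holds 55 original genes with 39 d and 34 n copies, which were summed here to 23 family numbers, and 10 of its features carry dv in their symbol. Of the 163 members, 98 had at least 1 UMI (unique molecular identifier, a count of 1 captured RNA molecule) in T cells of at least 1 library.

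Immune cells came from whole livers described as tumor bearing, at day 30 post infection, and each library was 1 pool of 3 tumor samples. The groups were mock infected (titled native liver), AAV-sgSCR (an AAV with the control guide) and AAV-sgBaat (an AAV with a guide named for Baat, the enzyme that joins bile acids to glycine or taurine). CD3+ CD45hi T cells and the remaining CD45hi immune cells were sorted apart before capture. Antibody tags for CD90.1 and CD90.2, the allelic forms of the Thy1 surface protein, were counted in the same matrices. The labels do not say which mice or cells carried CD90.1, whether T cells were transferred, what delivers the nuclease, or the strain, sex or age of the animals.

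An alpha chain is made by joining 1 Trav segment to a Traj segment, and a beta chain by joining a Trbv, a Trbd and a Trbj segment, each in front of a constant gene (Trac, Trbc1 or Trbc2). The beta chain is rearranged first, in immature cells that express Dntt, Rag1 and Rag2, and pairs with the pre-T alpha chain (Ptcra) before the alpha locus is joined. A mature alpha-beta T cell usually carries a single productive beta chain, and an ordinary population of such cells uses many V genes. Trav genes with dv in their symbol can also serve the delta chain of gamma-delta T cells. A 3′ library reads the far end of the transcript from the V segment, so V UMIs are sparse, and a V gene call without its junction is not a clone.

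Barcodes with at least 500 genes, at least 1000 gene UMIs, at most 10% mitochondrial UMIs and 2 or more UMIs summed over Cd3d, Cd3e and Cd3g numbered 2150 in mock, 3834 in AAV-sgSCR and 4409 in AAV-sgBaat. The T cell barcodes that libraries shared numbered 7 between mock and AAV-sgSCR, 1 between mock and AAV-sgBaat and 5 between AAV-sgSCR and AAV-sgBaat. Cells were sorted by transcripts into Dntt/Arpp21 cells (at least 2 UMIs of the 2 immature T cell genes), NKT, gamma-delta, CD8, CD4 and other cells. With at least 100 tag UMIs, they were then split by the larger of the CD90 tags. CD90.1-dominant CD8 cells numbered 14 in mock, 1875 in AAV-sgSCR and 791 in AAV-sgBaat, and CD90.2-dominant ones 643, 915 and 481. CD90.1-dominant Dntt/Arpp21 cells numbered 0, 151 and 1761 in the same order. Cells that reached a set minimum of UMIs of a B cell, myeloid or other lineage panel were 42.2% (AAV-sgSCR) and 59.4% (AAV-sgBaat) of CD90.1-dominant CD8 cells, against 19.1% in mock, 26.0% in AAV-sgSCR and 25.4% in AAV-sgBaat of CD90.2-dominant ones. Below, cells with another lineage's transcripts, or mixed-lineage barcodes, are those that reached this minimum. Cells under the minimum could still hold some such UMIs. Each group being a single library, no test between groups was possible. The 95% intervals, exact Clopper-Pearson for shares and exact Poisson for sums, cover counting error only.

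V genes were read in CD8, CD4, NKT and Dntt/Arpp21 cells, and CD90.1-dominant CD8 cells held more Trbv RNA than CD90.2-dominant ones in both AAV libraries. Trbv genes gave 0.620 UMIs per 10000 gene UMIs (0.583 to 0.659) in CD90.1-dominant CD8 cells of AAV-sgSCR and 0.646 (0.572 to 0.728) in those of AAV-sgBaat. In CD90.2-dominant CD8 cells they gave 0.261 in mock, 0.281 in AAV-sgSCR and 0.286 in AAV-sgBaat. The intervals of the CD90 sides did not overlap, while those of libraries on the same side did. Trav genes gave 0.386 and 0.438 on the CD90.1 side, and 0.337, 0.450 and 0.279 on the CD90.2 side. The Trav intervals of the sides did not overlap in AAV-sgBaat (0.377 to 0.506 and 0.220 to 0.348) and overlapped in AAV-sgSCR, where the CD90.1 value was the lower one.

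The constant genes moved with the Trbv sum. Trbc1 and Trbc2 together gave 40.7 UMIs per 10000 gene UMIs in CD90.1-dominant CD8 cells of AAV-sgSCR and 41.6 in AAV-sgBaat, against 18.6, 16.9 and 17.5 in CD90.2-dominant cells of mock, AAV-sgSCR and AAV-sgBaat. Per 100 Trbc UMIs, Trbv UMIs numbered 1.52 and 1.55 on the CD90.1 side and 1.40, 1.67 and 1.64 on the CD90.2 side. Relative to the constant genes, the sides thus lay within the same range. Trac, the alpha constant gene, gave 6.60 and 4.96 UMIs per 10000 on the CD90.1 side and 3.51, 3.95 and 3.80 on the CD90.2 side.

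**Figure D1:**
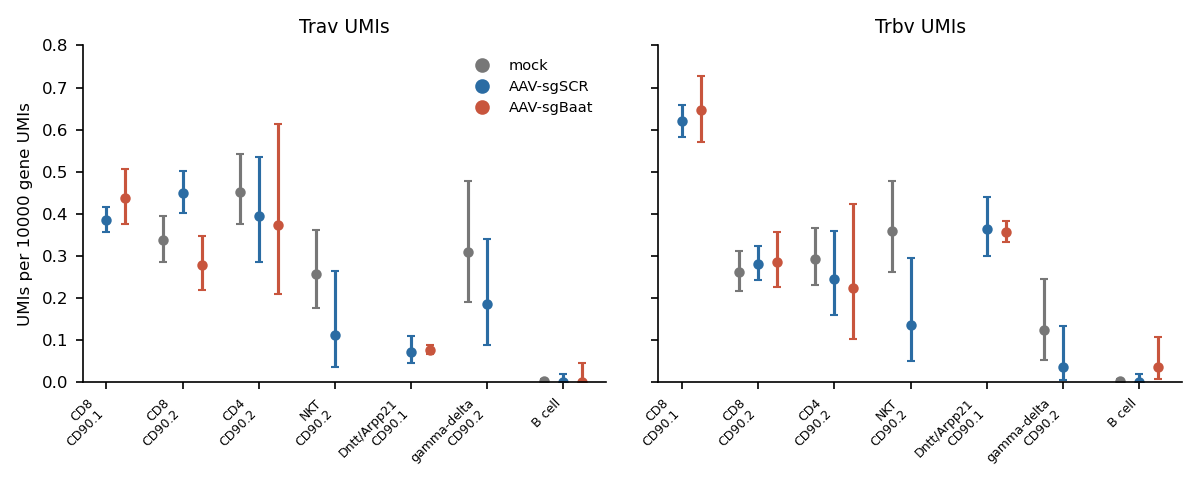
Trav UMIs (left) and Trbv UMIs (right) per 10000 gene UMIs on the y axis, by cell class and CD90 side on the x axis. Points are sums over the cells of 1 library, coloured by library, for classes of at least 50 cells, and bars are exact Poisson 95% intervals for counting error only. CD90.1-dominant CD8 cells sit at 0.620 and 0.646 for Trbv, above every other class drawn, and Dntt/Arpp21 cells sit at 0.0723 and 0.0771 for Trav, below the CD8 cells.

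A Trbv UMI was found in 713 of 1875 CD90.1-dominant CD8 cells of AAV-sgSCR (38.0%, 35.8 to 40.3) and in 201 of 791 of AAV-sgBaat (25.4%, 22.4 to 28.6). On the CD90.2 side it was found in 16.3% of mock, 18.3% of AAV-sgSCR and 14.8% of AAV-sgBaat cells. These shares move with depth, since the median gene UMIs per cell were 6408 in AAV-sgSCR and 3756 in AAV-sgBaat on the CD90.1 side and 6191, 5860 and 4608 on the CD90.2 side. With every cell thinned to 2000 gene UMIs, which left out 27, 174, 6, 26 and 36 cells, the shares were 14.7% and 12.3% on the CD90.1 side and 4.71%, 6.41% and 6.52% on the CD90.2 side. The CD90.1 side stayed higher at equal depth, and no order between AAV-sgSCR and AAV-sgBaat is read from the unthinned shares.

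B cells, which should hold no rearranged T cell receptor, gave the background. They were required to hold no Cd3 UMI, which removes barcodes with stray Cd3 RNA. Trbc2 was still found in 2.04% of them in mock, 13.9% in AAV-sgSCR and 23.6% in AAV-sgBaat. Of 2501 mock B cells, 2 had a Trav UMI and 2 a Trbv UMI (0.0800% each), at a median of 3383 gene UMIs. Of 577 AAV-sgSCR B cells 0 had a V UMI, which allows a share of up to 0.520% at 3 counts of the total (0.637% by the exact interval), at a median of 2824. Of 301 AAV-sgBaat B cells, 3 had a Trbv UMI (0.997%) and none a Trav UMI, at a median of 2124.

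Among beta chains, CD90.1-dominant CD8 cells called almost entirely to Trbv29 (ENSMUSG00000076480, chromosome 6, 41271403 to 41271881). RefSeq also lists this V gene as Tcrb-V7 or Vbeta7 and classes it as a V segment pseudogene. Trbv29 is, however, also a beta partner in the semi-invariant NKT receptor described below. A cell was called for the Trbv gene with the most UMIs, and ties were left out. Trbv29 was called in 674 of 697 such cells in AAV-sgSCR (96.7%, 95.1 to 97.9), in 186 of 199 in AAV-sgBaat (93.5%, 89.1 to 96.5) and in 7 of 7 in mock, whose lower bound is 59.0%. In CD90.2-dominant CD8 cells it was called in 9 of 104 in mock (8.65%, 4.03 to 15.8), 37 of 165 in AAV-sgSCR (22.4%, 16.3 to 29.6) and 10 of 67 in AAV-sgBaat (14.9%, 7.40 to 25.7). The intervals of the CD90.1 and CD90.2 sides lay far apart within each AAV library, and the 2 AAV libraries overlapped on the CD90.1 side.

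**Figure D2:**
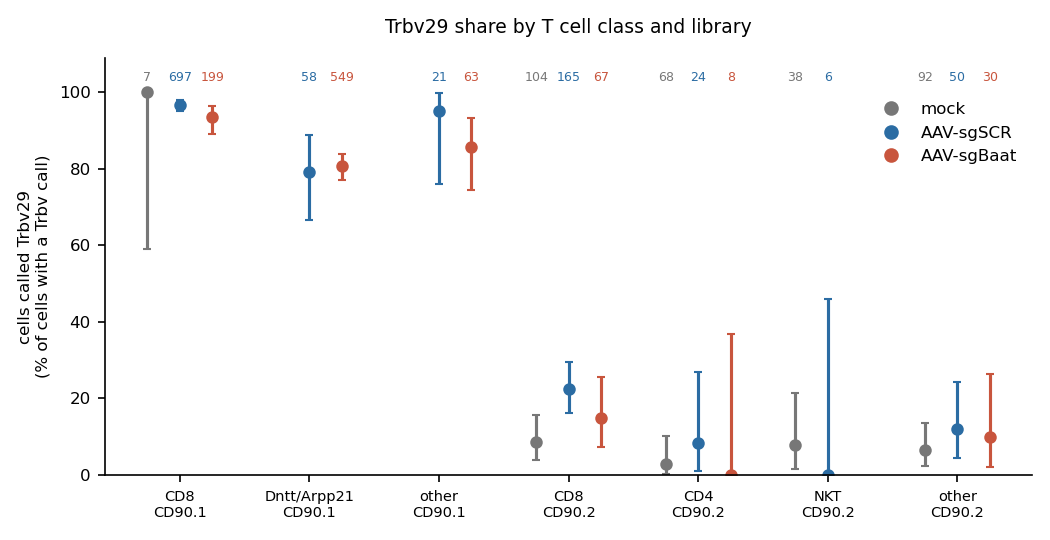
Share of cells called Trbv29 among cells with a Trbv call (y axis, %), by T cell class and dominant CD90 tag (x axis). Points are single libraries, bars are exact Clopper-Pearson 95% intervals, and the numbers on top are cells with a Trbv call, drawn from 5 calls up. Every CD90.1-dominant class drawn lies at 79.3% or above and every CD90.2-dominant class drawn at 22.4% or below; CD90.2-dominant Dntt/Arpp21 cells, with 6 calls or fewer per library, are not drawn.

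The calls rested on few UMIs. In AAV-sgSCR, 690 CD90.1-dominant CD8 cells held 973 Trbv29 UMIs, 72.3% of these cells having 1 UMI and the highest 8. In AAV-sgBaat, 188 cells held 252 UMIs, 74.5% of them having 1. As a level, Trbv29 was at 59.2 CPM (counts per 1000000 gene UMIs) in AAV-sgSCR and 60.3 in AAV-sgBaat on the CD90.1 side, against 6.47 and 5.79 on the CD90.2 side and 3.04 in CD90.2-dominant CD8 cells of mock. The CD90.1 levels of the 2 AAV libraries differed by a log2 ratio of 0.03 (-0.18 to 0.23, AAV-sgBaat over AAV-sgSCR).

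Myeloid transcripts differed by tag side within each AAV library and also by library, being lowest in mock. The 6 monocyte and macrophage markers, all detected, summed to 30.9 and 41.0 UMIs per 10000 in CD90.1-dominant CD8 cells and to 3.81, 21.3 and 24.2 in CD90.2-dominant ones. The 2 neutrophil markers summed to 218 and 79.5 on the CD90.1 side and to 0.0239, 41.3 and 59.6 on the CD90.2 side, in the same order. The CD90.1 values are those of AAV-sgSCR and AAV-sgBaat, and the CD90.2 values those of mock, AAV-sgSCR and AAV-sgBaat. Both panels had 0 UMIs in the 14 CD90.1-dominant CD8 cells of mock. Without cells that reached the minimum for another lineage's panel, Trbv29 was called in 422 of 433 (97.5%) and 95 of 100 cells on the CD90.1 side. The cells kept could still hold some such transcripts.

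The other Trbv genes of CD90.1-dominant CD8 cells were few. In AAV-sgSCR, Trbv13-1 (chromosome 6, 41116036 to 41116468) was called in 13 cells and Trbv15 in 2, with 1 cell each for 8 further genes. In AAV-sgBaat, Trbv12-2 was called in 4 cells, Trbv13-2, Trbv15 and Trbv5 in 2 each, and Trbv13-1, Trbv19 and Trbv23 in 1 each. Trbv13-1 differed from Trbv29 in its UMIs: all 27 cells that had it in AAV-sgSCR held exactly 1, and 14 of them also held Trbv29. Trbv13-3 and Trbv12-1, the beta V genes of the widely used P14 and OT-I transgenic receptors, were called in 1 cell each in AAV-sgSCR and in 0 of 199 cells in AAV-sgBaat, which allows a share of up to 1.51%.

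CD90.2-dominant CD8 cells spread over many Trbv genes. Trbv12-2 led in mock with 13 of 104 calls, followed by Trbv2 and Trbv3 with 10 each, Trbv29 with 9 and Trbv1 with 8. In AAV-sgSCR, Trbv29 led with 37 of 165, ahead of Trbv12-2 with 16, Trbv16 with 13, Trbv13-1 with 10 and Trbv13-2 with 9. In AAV-sgBaat, Trbv29 had 10 of 67, Trbv12-2 and Trbv2 8 each, Trbv16 7 and Trbv19 5. Except for the lead of Trbv29 in AAV-sgSCR, the order of these genes is within counting error in each library.

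Diversity indices over called cells give the same contrast as numbers. The inverse Simpson index, the number of equally used genes that would give the same chance of 2 cells sharing a call, was 1.07 and 1.14 for Trbv in CD90.1-dominant CD8 cells of AAV-sgSCR and AAV-sgBaat. It was 15.6, 11.8 and 13.8 in CD90.2-dominant ones of mock, AAV-sgSCR and AAV-sgBaat. In 50 called cells, 2.34 and 3.76 Trbv genes would be found on the CD90.1 side and 17.3, 17.2 and 16.5 on the CD90.2 side. The alpha chain was less uneven. Its Trav index was 3.56 and 4.09 on the CD90.1 side against 9.75, 9.85 and 7.82 on the CD90.2 side, with 12.03 and 10.5 against 13.9, 13.5 and 13.6 families in 50 called cells.

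Within CD8 cells, Trbv29 use followed the CD90.1 share of the tags rather than switching at the midpoint. In AAV-sgSCR, Trbv29 was called in 6 of 88 cells at a CD90.1 share of up to 5%, in 1 of 33 from 5 to 10%, in 4 of 13 from 10 to 20%, in 9 of 12 from 20 to 35% and in 17 of 19 from 35 to 50%. It was then called in 21 of 26, 30 of 31, 52 of 52 and 571 of 588 cells in the ranges up to 65%, 80%, 90% and 100%. In AAV-sgBaat the calls were 2 of 28, 1 of 15, 2 of 12, 0 of 3 and 5 of 9 below 50%, and 10 of 14, 22 of 27, 39 of 40 and 115 of 118 above. The excess of Trbv29 over mock on the CD90.2 side of AAV-sgSCR lay in cells with 10 to 50% CD90.1. In AAV-sgBaat, the interval of the CD90.2 side overlapped that of mock. With the CD90.2 side limited to cells of at most 10% CD90.1, a limit chosen after the values were seen, Trbv29 was called in 7 of 121 cells (5.79%) in AAV-sgSCR and 3 of 43 (6.98%) in AAV-sgBaat, next to 8 of 100 in mock at the same limit.

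**Figure D3:**
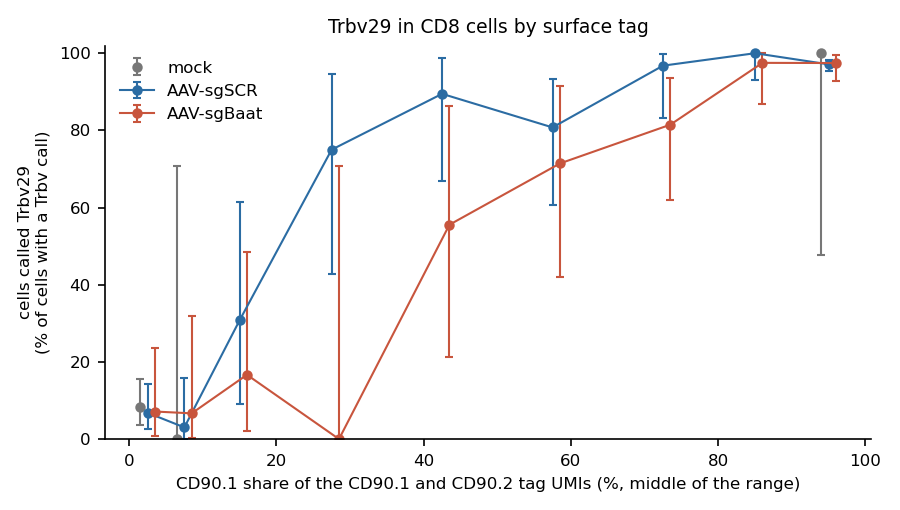
Share of CD8 cells called Trbv29 among those with a Trbv call (y axis, %) against the CD90.1 share of the CD90 tag UMIs (x axis, %, middle of each range, libraries slightly offset), for ranges with at least 3 calls. Bars are exact Clopper-Pearson 95% intervals. Both AAV libraries run from under 10% at the lowest tag shares to 97.1% and 97.5% at the highest.

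The 14 CD90.1-dominant CD8 cells of mock shared no barcode with another library. Their CD90.1 tag counts ran from 56 to 1443 with a median of 416.5, against a CD90.2 median of 45.5, and 2 of the 14 held another lineage's transcripts. Trav9 was called in 6 of their 7 Trav calls, and 4 of the 5 cells with both chains were Trav9 with Trbv29. This small set thus carried the same pair as the large CD90.1 population of AAV-sgSCR.

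The alpha chain calls split CD90.1-dominant CD8 cells between a few families, in shares that differed between the AAV libraries. Trav9, read almost wholly as Trav9-2 (ENSMUSG00000094966, chromosome 14, 53591080 to 53591504), was called in 221 of 433 cells in AAV-sgSCR (51.0%, 46.2 to 55.8) and in 34 of 112 in AAV-sgBaat (30.4%, 22.0 to 39.8). Trav21, read as Trav21-dv12 (ENSMUSG00000076863, chromosome 14, 53876016 to 53876752), was called in 25 of 433 (5.77%, 3.77 to 8.41) and in 43 of 112 (38.4%, 29.4 to 48.1). Neither pair of intervals overlapped, though the Trav9 difference was not seen where a call needed 2 UMIs. Trav12, Trav6 and Trav16 followed in AAV-sgSCR with 30, 27 and 26 calls, and Trav13, Trav16 and Trav19 in AAV-sgBaat with 7, 5 and 4.

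The 2 leading families also differed in UMIs per cell. Of 253 AAV-sgSCR cells with a Trav9 UMI, 90.5% had 1 and none more than 2, and 31 cells with Trav12 held 59 UMIs with up to 5. Of 30 cells with a Trav21 UMI in the same library, 76.7% had 1. In AAV-sgBaat, 80.5% of 41 cells with Trav9 and 60.4% of 53 with Trav21 had 1. A call that needs 2 UMIs therefore favours Trav21 and Trav12 over Trav9: it gave Trav9 27.9% in AAV-sgSCR and Trav21 66.7% in AAV-sgBaat. That Trav9 share lies within the 25.5% to 35.8% that Trav9 spanned in AAV-sgBaat over all settings. Trav21 stayed apart between the libraries, at 5.16% to 8.14% in AAV-sgSCR and 36.9% to 66.7% in AAV-sgBaat over all settings. As levels, Trav9-2 was at 16.4 CPM in AAV-sgSCR and 11.01 in AAV-sgBaat, a log2 ratio of -0.57 (-1.05 to -0.12), and Trav21-dv12 at 2.55 and 18.7, a log2 ratio of 2.87 (2.31 to 3.45).

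Both families took larger shares at higher CD90.1 tag shares. Trav9 was called in 5 of 162 AAV-sgSCR cells at up to 10% CD90.1, in 10 of 47 from 10 to 50%, in 28 of 73 from 50 to 90% and in 193 of 360 above 90%. In AAV-sgBaat it was called in 1 of 37, 2 of 19, 10 of 45 and 24 of 67, and Trav21 in 0 of 37, 2 of 19, 16 of 45 and 27 of 67. In AAV-sgSCR the smaller Trav21 family had 2 of 162, 1 of 47, 3 of 73 and 22 of 360. Trav16 was lower above 50% CD90.1 in both libraries. It had 32 of 162, 11 of 47, 8 of 73 and 18 of 360 in AAV-sgSCR. In AAV-sgBaat it had 10 of 37, 6 of 19, 1 of 45 and 4 of 67.

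**Figure D4:**
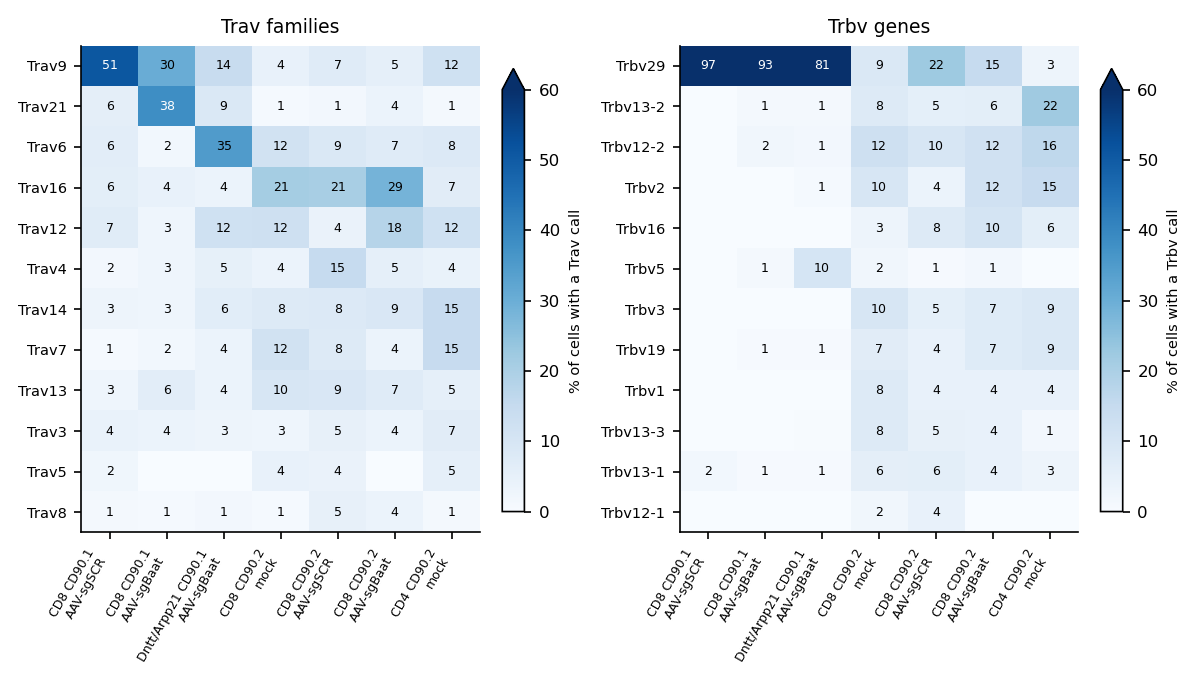
Share of cells called for each Trav family (left) and Trbv gene (right), as a rounded percentage of the cells with a call in 7 combinations of class, CD90 side and library (columns), for the 12 members with the highest share in any column. Colours are capped at 60% and cells under 0.5% carry no number. The Trbv29 row is dark in the 3 CD90.1 columns only, while Trav9, Trav21 and Trav6 lead 1 CD90.1 column each.

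In CD90.2-dominant CD8 cells, Trav16 was the most called family in all 3 libraries, with 24 of 113 cells in mock (21.2%), 43 of 209 in AAV-sgSCR (20.6%) and 16 of 56 in AAV-sgBaat (28.6%). Its copies divided unequally. Trav16 itself (chromosome 14, 53743174 to 53743705) had 27, 13 and 11 UMIs in mock, AAV-sgSCR and AAV-sgBaat, and Trav16n (chromosome 14, 53351090 to 53351621) had 9, 44 and 9. RefSeq gives Trav16n as a synonym of Trav16, and reads of near-identical copies can be split or lost in counting, so the split between them is uncertain. Original copies, those with neither d nor n in the symbol, made up 93.7% and 95.6% of Trav UMIs on the CD90.1 side and 80%, 67.8% and 66.2% on the CD90.2 side.

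Cells with a call for both chains on the CD90.1 side of the CD8 class numbered 182 for AAV-sgSCR and 39 for AAV-sgBaat. Trav9 with Trbv29 made up 85 of the 182 (46.7%, 39.3 to 54.2), next to 46.5% for the product of the 2 single shares. With Trbv29 in nearly all Trbv calls, a pair share must lie near this product, so nothing on pairing is read from it. Trav21 with Trbv29 followed with 15 (8.24%) and Trav12 with Trbv29 with 12 (6.59%). In AAV-sgBaat, Trav21 with Trbv29 led with 14 of 39 (35.9%, 21.2 to 52.8) next to a product of 35.5%, ahead of Trav9 with Trbv29 with 12 (30.8%, 17.0 to 47.6) and Trav19 with Trbv29 with 2. Trbv29 thus occurred with several Trav families in both libraries, though in AAV-sgBaat no family besides Trav21 and Trav9 was found with it in more than 2 cells. Of CD90.2-dominant CD8 cells, 18 in mock and 13 in AAV-sgBaat had both calls, and no pair occurred in more than 1 cell. In AAV-sgSCR 36 had both, of which 3 were Trav9 with Trbv29.

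Few Traj UMIs were read. In CD90.1-dominant CD8 cells of AAV-sgSCR, Traj49 had 7 and Traj37 had 6, the most of any J gene, and AAV-sgBaat had 1 of each.

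A second V gene was seen in some cells. In CD90.1-dominant CD8 cells, 23 of 713 cells with a Trbv UMI in AAV-sgSCR (3.23%) and 3 of 201 in AAV-sgBaat held 2 or more Trbv genes. For Trav families it was 49 of 462 (10.6%) and 21 of 124 (16.9%), most often Trav16 with Trav9 (8 cells) in AAV-sgSCR and Trav21 with Trav9 (7 cells) in AAV-sgBaat. A second alpha chain is known from ordinary T cells, since the alpha locus can rearrange on both alleles. Barcodes holding more than 1 cell were not removed, and their part in these counts was not tested.

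The Trbc2 share differed between the CD90 sides. Trbc2 made up 84.2% of Trbc UMIs in Trbv29-called CD90.1-dominant CD8 cells of AAV-sgSCR and 83.7% in AAV-sgBaat, and 82.6% and 82.3% in cells of the same class with no call. In the 23 and 13 cells of that class called for another Trbv gene it made up 81.9% and 78.2%. On the CD90.2 side it made up 63.7%, 68.4% and 68.9% over all CD8 cells of mock, AAV-sgSCR and AAV-sgBaat. Within the CD90.2 side of AAV-sgSCR, Trbv29-called cells were at 76.1% (73.7 to 78.4) and cells called for another Trbv gene at 61.5% (59.2 to 63.7). In mock these were 68.4% and 67.3% and in AAV-sgBaat 76.5% and 73.6%, with intervals that overlapped in both libraries. These intervals treat UMIs as independent and leave out the spread between cells, so they are too narrow for a comparison. The AAV-sgSCR values come from 37 and 128 cells. The 2 constant genes are near-identical, and reads can be split between them.

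CD90.1-dominant CD8 cells called Trav9 and Trav21 differed in several state genes, in the same direction in both AAV libraries for Mki67 and Tcf7. These genes were looked at after the V shares were known. Mki67, a gene of cycling cells, was at 157 CPM (140 to 175) in the 221 Trav9 cells and 46.1 (23.0 to 82.4) in the 25 Trav21 cells of AAV-sgSCR, and at 238 (183 to 305) in 34 and 52.7 (28.8 to 88.3) in 43 cells of AAV-sgBaat. Tcf7, the factor of memory-like and naive T cells, ran the other way, at 15.7 (10.7 to 22.1) against 50.3 (26.0 to 87.8) in AAV-sgSCR and 15.1 (4.12 to 38.8) against 60.2 (34.4 to 97.7) in AAV-sgBaat, where the intervals overlapped. Gzmb, a granzyme, was at 382 (311 to 464) against 196 (146 to 256) in AAV-sgBaat but at 125 and 121 in AAV-sgSCR. Pdcd1 and Tox, an inhibitory receptor and a factor of exhausted cells, overlapped between the 2 calls in both libraries. The intervals treat UMIs as independent and leave out the spread between cells.

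**Figure D5:**
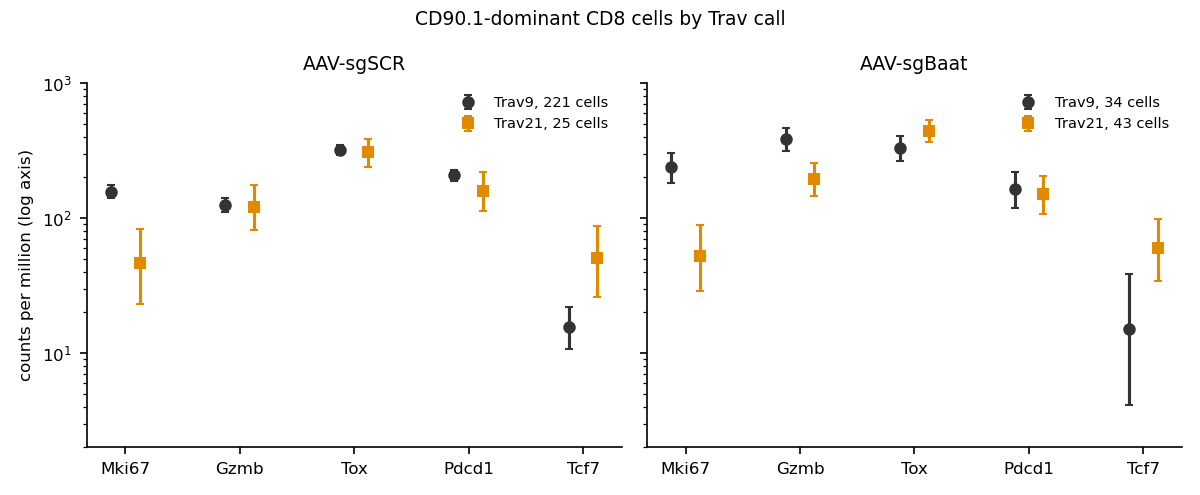
CPM of 5 state genes (y axis, log scale) in CD90.1-dominant CD8 cells called Trav9 (circles) or Trav21 (squares), in AAV-sgSCR (left) and AAV-sgBaat (right). Points are summed UMIs over the cells given in the legend and bars are exact Poisson 95% intervals for counting error only. Mki67 is higher in Trav9 cells in both libraries (157 against 46.1, and 238 against 52.7), and Tcf7 is lower, with intervals that overlap in AAV-sgBaat.

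The Dntt/Arpp21 cells were read mostly from AAV-sgBaat and carried beta chains with few alpha chains. In CD90.1-dominant cells of the class, Trbv gave 0.365 UMIs per 10000 gene UMIs in AAV-sgSCR and 0.358 in AAV-sgBaat, and Trav 0.0723 and 0.0771. Trac was at 154 and 112 CPM against 660 and 496 in CD90.1-dominant CD8 cells, while Trbc2 was at 3094 and 2997 against 3392 and 3444. Relative to CD8 cells, the alpha constant gene was thus much lower and the beta constant gene near the same level. Rag1 was at 90.7 and 72.2 CPM, Rag2 at 17.8 and 13.5, and Ptcra at 49.3 and 62.7.

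Trbv29 was again the main beta V gene, with 46 of 58 calls in AAV-sgSCR (79.3%, 66.6 to 88.8) and 443 of 549 in AAV-sgBaat (80.7%, 77.1 to 83.9). Trbv5 (ENSMUSG00000076465, chromosome 6, 41062359 to 41062803) was the second, with 8 of 58 (13.8%, 6.15 to 25.4) and 56 of 549 (10.2%, 7.80 to 13.0). In CD90.1-dominant CD8 cells Trbv5 was called in 0 of 697 in AAV-sgSCR, which allows a share of up to 0.430%, and in 2 of 199 in AAV-sgBaat. The Trbv29 interval of AAV-sgBaat Dntt/Arpp21 cells lay below that of CD90.1-dominant CD8 cells from the same library. Where a call needed 2 UMIs, this order did not hold. Trbv29 was then at 97.8% in these Dntt/Arpp21 cells, while the CD8 cells reached at most 97.5% in any setting.

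Trbv5 and Trbv29 differed in UMIs per cell. In AAV-sgBaat, 482 Dntt/Arpp21 cells held 664 Trbv29 UMIs, and 91 held 93 Trbv5 UMIs, of which 97.8% of cells had 1. Of 591 cells with a Trbv UMI, 60 held 2 or more Trbv genes (10.2%), and 31 of the 60 held Trbv29 and Trbv5. Trbv5 was in 91 cells in all and Trbv29 in 482 of the 1761 cells of the class. In AAV-sgSCR 9 of 64 held 2 or more Trbv genes (14.1%), 3 of them Trbv29 and Trbv5, where Trbv5 was in 11 cells in all and Trbv29 in 52 of the 151. Where a call needed 2 UMIs, Trbv29 was at 90.9% in AAV-sgSCR and 97.8% in AAV-sgBaat, and Trbv5 at 4.55% and 0.735%. Within AAV-sgBaat Dntt/Arpp21 cells, Trbv29 was called in 19 of 41 cells at 65 to 80% CD90.1, 64 of 78 at 80 to 90% and 357 of 425 above.

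Trav6 was the most called alpha family of these cells, with 49 of 141 calls in AAV-sgBaat (34.8%, 26.9 to 43.2) and 7 of 20 in AAV-sgSCR. Its UMIs came mainly from Trav6-7-dv9 (ENSMUSG00000095126, chromosome 14, 53709943 to 53710419), which had 52 of the 181 Trav UMIs. Trav9 followed with 20, Trav12 with 17, Trav21 with 12 and Trav14 with 9. In CD90.1-dominant CD8 cells, Trav6-7-dv9 had 1 UMI in AAV-sgBaat but 34 in AAV-sgSCR, where its level of 2.07 CPM was near the 2.22 and 2.30 CPM of the Dntt/Arpp21 cells of AAV-sgBaat and AAV-sgSCR. Of the 51 Dntt/Arpp21 cells of AAV-sgBaat with both calls, 17 were Trav6 with Trbv29 (33.3%), 6 Trav21 with Trbv29 and 5 Trav9 with Trbv29.

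The dv genes as a group made up 48.1% of Trav UMIs in AAV-sgBaat Dntt/Arpp21 cells, and 45.4% in CD90.1-dominant CD8 cells of that library against 15.6% in those of AAV-sgSCR. Single genes carry these values: Trav21-dv12 had 78 of the 83 dv UMIs of CD90.1-dominant CD8 cells in AAV-sgBaat, and Trav4-4-dv10 had 54 of the 90 of CD90.2-dominant ones in AAV-sgSCR. On the CD90.2 side of CD8 cells they made up 10.97%, 28.1% and 13.0% in mock, AAV-sgSCR and AAV-sgBaat.

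Other lineages' transcripts were present in 57.6% (AAV-sgSCR) and 63.4% (AAV-sgBaat) of CD90.1-dominant Dntt/Arpp21 cells, and their median gene UMIs, 18049 and 11697, were well above those of CD8 cells. Without such cells, Trbv29 was at 83.3% (20 of 24) and 81.2% (164 of 202). CD90.2-dominant Dntt/Arpp21 cells were 10, 21 and 40 in mock, AAV-sgSCR and AAV-sgBaat, with 1, 2 and 6 Trbv calls, too few to compare, and 2 of the 6 were Trbv29. The immature gene panel also reached CD90.1-dominant CD8 cells of AAV-sgBaat, at 0.759 UMIs per 10000 against 0.0341 in AAV-sgSCR. Leaving out CD8 cells with any such UMI moved none of the V shares beyond their intervals.

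CD90.1-dominant cells outside these gates numbered 104 in AAV-sgSCR and 689 in AAV-sgBaat, and Trbv29 was called in 20 of 21 and 54 of 63 (85.7%) of those with a Trbv call.

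NKT cells were gated on Zbtb16 with no V gene used. The semi-invariant NKT receptor joins Trav11 to Traj18 and pairs it with Trbv13-2, Trbv29 or Trbv1. Trbv13-2 (chromosome 6, 41121396 to 41121832) was called in 16 of 38 mock NKT cells (42.1%, 26.3 to 59.2), Trbv13-1 in 6, and Trbv1, Trbv12-2 and Trbv29 in 3 each. Trav11 was called in 6 of 23 (26.1%, 10.2 to 48.4), against 1 of 113 CD8, 1 of 75 CD4 and 8 of 93 other CD90.2-dominant cells of mock. Of the 5 mock NKT cells with both calls, 0 paired Trav11 with 1 of those 3 Trbv genes: 2 were Trav13 with Trbv13-1, and the single Trav11 cell was called Trbv21. Traj18 had 2 UMIs. The Trbv inverse Simpson index of mock NKT cells was 4.85.

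In AAV-sgSCR, 60 CD90.2-dominant NKT cells gave 6 Trbv calls, 2 of them Trbv13-2, and 5 Trav calls, 1 of them Trav11. None of 19 such cells in AAV-sgBaat had a V UMI, which allows a share of up to 15.8% (17.6% by the exact interval), so their V genes were not detectable at this depth. Trav1 and Trbv19, the V genes of the semi-invariant MAIT receptor, were called in 1 cell each in mock NKT cells.

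CD4 cells were almost all CD90.2-dominant, 421 in mock, 167 in AAV-sgSCR and 99 in AAV-sgBaat, and spread over many V genes. In mock, Trbv13-2 led with 15 of 68 calls (22.1%, 12.9 to 33.8), ahead of Trbv12-2 with 11, Trbv2 with 10 and Trbv19 and Trbv3 with 6 each. Trbv29 was called in 2 of 68 cells in mock, 2 of 24 in AAV-sgSCR and 0 of 8 in AAV-sgBaat. Trav14 and Trav7 led the alpha chain in mock with 11 of 75 calls each. The inverse Simpson index in mock CD4 cells was 9.22 for Trbv and 11.9 for Trav.

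Gamma-delta cells, which rearrange other chains, held fewer Trbv UMIs, at 0.124 per 10000 gene UMIs in mock and 0.0371 in AAV-sgSCR on the CD90.2 side. Their Trav UMIs, 0.310 and 0.186 per 10000, came largely from dv genes, with 12 of 20 UMIs in mock and 7 of 10 in AAV-sgSCR. Trav13 and Trav15 had 4 of 15 calls each in mock, and Trav22 had 3.

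Among CD90.2-dominant CD8 cells, 1 Trav family stood out in a single library. Trav4, read as Trav4-4-dv10 (ENSMUSG00000096096, chromosome 14, 53683677 to 53684177), was called in 31 of 209 AAV-sgSCR cells (14.8%), and the gene had 54 UMIs there against 1 in mock and 1 in AAV-sgBaat. These cells were looked at after their share was seen. Of the 31, 3 had a Trbv call, 2 for Trbv29 and 1 for Trbv13-1. Their median CD90.1 tag share was 5.25% against 3.79% in the 178 cells called for another family, and their median gene UMIs were 3696 against 7198.5.

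The Trav4 cells of AAV-sgSCR differed from the other called cells of the class in several single genes, which were not fixed as a list. Pdcd1, an inhibitory receptor, was at 167 CPM (106 to 251) against 43.0 (33.6 to 54.2), Tox at 320 (233 to 430) against 91.4 (77.4 to 107) and Gzmk, a granzyme, at 233 (159 to 329) against 34.5 (26.1 to 44.7). Gzmb was at 364 (270 to 480) against 186 (166 to 208). The homing receptor gene Cxcr6 was at 422 against 142 CPM and the chemokine gene Ccl5 at 18664 against 6416. Tcf7 ran the other way, at 43.7 (16.0 to 95.1) against 114 (98.2 to 131). Mki67, at 131 and 89.6, overlapped. Cells with another lineage's transcripts were 4 of 31 and 59 of 178. The intervals treat UMIs as independent and leave out the spread between cells, and in the 31 Trav4 cells Pdcd1 rests on 23 UMIs and Tcf7 on 6.

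Fold changes of single V genes were set against those of all genes with at least 20 UMIs over both sums, calling a ratio of CPM of at least 2. For the ratios, a sum of 0 was set to 3 counts. For CD90.1 over CD90.2 CD8 cells, the median of all genes sat 0.13 above 0 on the log2 scale in AAV-sgSCR and 0.21 in AAV-sgBaat, and ratios are given without removing it. A gene can pass the minimum through the group where it is high, so the counts and medians of V genes describe the genes that passed, and nothing is read from them. In AAV-sgSCR, 15 V genes could be measured. Of these, 5 were higher, where 8.25% of all genes were, and 4 were lower, where 2.82% were. The median log2 ratio of the 15 was -0.05. The higher genes were Trbv29 at 3.19 (2.77 to 3.65), Trav9-2 at 2.77 (2.07 to 3.57), Trav21-dv12 at 2.18 (0.72 to 4.12), Trav12-3 at 2.01 (0.32 to 4.37) and Trav19 at 1.37, whose interval spans 0. The lower ones were Trbv12-2 at -4.53 (-7.67 to -2.49, on 2 against 20 UMIs), Trav4-4-dv10 at -3.51 (-4.59 to -2.55), Trav16n at -2.58 (-3.48 to -1.75) and Trav13-1 at -1.91 (-3.39 to -0.53).

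In AAV-sgBaat, 3 V genes could be measured for the same contrast and 3 were higher, where 7.82% of all genes were higher and 2.04% lower. The 3 passed through their UMIs on the CD90.1 side, which fixes the direction of that count. Trbv29 was at a log2 ratio of 3.38 (2.65 to 4.21), Trav9-2 at 3.93 (1.99 to 7.02, on 46 against 2 UMIs) and Trav21-dv12 at 3.10 (1.92 to 4.59).

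Between the AAV libraries, 10 V genes could be measured in CD90.1-dominant CD8 cells. Over AAV-sgSCR, 1 was higher in AAV-sgBaat, where 4.0% of all genes were, and 4 were lower, where 6.72% were. Trav21-dv12 was the higher one. The lower ones passed through AAV-sgSCR, where the summed gene UMIs were deeper (16445597 against 4176438), and had 1 or 2 UMIs in AAV-sgBaat, so their number carries no comparison: Trav6-7-dv9 at -3.11 (-8.46 to -0.53), Trav12-3 at -2.83 (-8.18 to -0.23), Trbv13-1 at -2.78 (-8.13 to -0.18) and Trav12-2 at -1.93, whose interval spans 0. In Dntt/Arpp21 cells, 6 could be measured and 0 passed in either direction, where 2.47% and 3.56% of all genes did, with Trbv29 at -0.02 (-0.34 to 0.32) and Trbv5 at -0.11 (-0.95 to 0.85).

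In CD90.2-dominant CD8 cells, AAV-sgBaat over AAV-sgSCR gave 6 measurable V genes. Of these, 1 was higher (Trav16 at 1.12, with an interval that spans 0), where 1.05% of all genes were, and 1 lower (Trav4-4-dv10 at -4.39, -9.72 to -1.85, on 1 against 54 UMIs), where 3.86% were. For AAV-sgSCR over mock, 3 of 8 were higher, where 10.9% of all genes were, and 1 was lower, where 2.99% were. The higher genes were Trav4-4-dv10 at 5.13 (2.59 to 10.5), Trav16n at 1.66 (0.61 to 2.88) and Trbv29 at 1.09 (0.20 to 2.07), and the lower one was Trav16 at -1.68 (-2.76 to -0.68). For AAV-sgBaat over mock, 4 could be measured and 0 passed, where 8.29% of all genes were higher and 5.37% lower, with Trbv29 at 0.93 (-0.20 to 2.07). These contrasts share libraries and are not independent of each other.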

How the data were processed

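Raw UMI counts per feature and barcode were used as deposited, with no normalization, per the file headers; the authors counted reads with Cell Ranger on mm10, per the submitters' processing notes, and the matrix headers give version 6.0.1. T cells were barcodes with at least 500 genes, 1000 gene UMIs, 2 Cd3 UMIs and at most 10% mitochondrial UMIs. Each was gated in order as Dntt/Arpp21, NKT (Zbtb16), gamma-delta (Trdc), CD8, CD4 or other, and B cells had no Cd3 UMI. NKT cells also had to lack Cd8a, Cd8b1 and Trdc UMIs, and gamma-delta cells Cd8a, Cd8b1 and Cd4 UMIs. CD8 cells could therefore hold Trdc. In AAV-sgSCR it was found in 20.1% of CD90.1-dominant and 6.23% of CD90.2-dominant CD8 cells. Doublets were not removed; barcodes with another lineage's transcripts were left out as an alternative. V calls took the gene or Trav family with most UMIs. Named are the 5 leading families per class with at least 30 calls, the 3 leading pairs, and the V genes of P14, OT-I, NKT and MAIT receptors. An upper limit for a count of 0 is 3 counts of the total. The members and lists were chosen with earlier results of these data known. Calls and ratios were tested on simulated data. Analysis used Python 3.11.15, numpy 2.4.6, scipy 1.17.1 and pandas 2.3.3.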

Additional observations from a re-analysis of the deposited data

How the results depend on the processing

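No paired analysis was possible because each group is 1 library and no result comes from a test. No value was marked as moved with at least 50 tag UMIs, at most 5% mitochondrial UMIs or the deepest 5% of barcodes left out. The same held for single Trav features, a Klrb1c gate for NKT cells and scaling by the median of ratios. It also held for CD8 cells without immature-gene UMIs (added after seeing the data). Shares carry intervals, while diversity indices and counts of passing V genes have none. Depth is the main limit, as thinning and calls from 2 UMIs moved 14 of 31 and 17 of 26 values.

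Trbv29 in CD90.2-dominant CD8 cells of AAV-sgSCR was 8.96% with 200 tag UMIs and a 3-fold dominant tag, 12.4% without mixed-lineage barcodes, 12.3% when thinned and 5.79% at tag shares of 10% or less (chosen after seeing the data), where AAV-sgBaat was at 6.98%. The Trbv inverse Simpson index there was 18.1 with the stricter tags, 17.9 thinned and 18.4 by tag share. In CD90.1-dominant CD8 cells of AAV-sgBaat, Trbv29 was 96.8% with the stricter tags and 97.5% by tag share.

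Cells with a Trbv UMI were 40.8% (AAV-sgSCR, CD90.1), 31.5% (AAV-sgBaat, CD90.1) and 15.5% (AAV-sgSCR, CD90.2) of CD8 cells without mixed-lineage barcodes. AAV-sgBaat CD90.1 cells were at 29.4% with at least 4 Cd3 UMIs, 30.6% with doubled gates and 29.7% by tag share. In AAV-sgSCR and AAV-sgBaat CD90.1 and mock, AAV-sgSCR and AAV-sgBaat CD90.2 CD8 cells, these shares were 14.7%, 12.3%, 4.71%, 6.41% and 6.52% thinned, and 10.99%, 6.57%, 1.87%, 2.95% and 1.46% for 2 UMIs.

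With 2 UMIs per call, Trbv29 was 100% in CD90.1 CD8 cells of AAV-sgSCR, 27.3% in CD90.2 ones of mock, and 90.9% and 97.8% in Dntt/Arpp21 cells of AAV-sgSCR and AAV-sgBaat, where Trbv5 was 4.55% and 0.735%. Trav9 was 27.9% (AAV-sgSCR), Trav21 66.7% (AAV-sgBaat), the pair Trav21 with Trbv29 13.3% (AAV-sgSCR), Trav6 in Dntt/Arpp21 cells 25%, and in mock NKT cells Trav11 0% and Trbv13-2 20%. Few cells kept such a call in mock, where 1.87% of 643 CD90.2-dominant CD8 cells had at least 2 Trbv UMIs. By V UMIs, Trav9 was 43.6% in AAV-sgSCR.

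Thinned, the pair Trav9 with Trbv29 was 35.3% in AAV-sgSCR and 16.7% in AAV-sgBaat, Trav21 with Trbv29 83.3% in AAV-sgBaat, and in Dntt/Arpp21 cells Trbv29 was 57.1% and 76.4% and Trbv5 28.6% and 14.2%. Several of these shares rest on few cells, and no shift is read from them. Of 150 thinned CD90.1-dominant Dntt/Arpp21 cells of AAV-sgSCR, 9.33% kept a Trbv UMI. Of 617 thinned CD90.1-dominant CD8 cells of AAV-sgBaat, 7.94% kept a Trav UMI and 12.3% a Trbv UMI. With at least 50 UMIs per gene, CD90.1 over CD90.2 in AAV-sgSCR gave 2 V genes higher and 2 lower, AAV-sgBaat over AAV-sgSCR gave 0 lower (CD90.1) and 0 higher (CD90.2), and AAV-sgSCR over mock 0 lower. At a ratio of 4, AAV-sgBaat over AAV-sgSCR gave 0 higher (CD90.2), and AAV-sgSCR over mock 1 higher and 0 lower. The cause of the other moves was not tested.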
